A study of Mus musculus with 21 samples.

Results

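The 10 genes here, Gap43, Gng8, Dpysl3, Dpysl5, Crmp1, Dcx, Stmn1, Stmn2, Stmn4 and Marcksl1, are grouped as growth cone genes of immature neurons. They were taken by symbol from the deposited expression tables, and each was present in both. They are 10 of 23587 genes in the table of mice with 2 driver transgenes and 10 of 22918 genes in the table of mice with 1 driver. All 10 passed the filter on low values in every comparison.

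The libraries came from cells sorted by mCherry out of the main olfactory epithelium. Every mouse carried a tetO construct with mCherry. In HT mice the construct encoded HyperTRIBE alone, an RNA-editing enzyme domain, and in MexHT mice it encoded HyperTRIBE fused to the RNA-binding protein Mex3a. The construct was switched on by the tTA transactivator under gg8-tTA, which acts in immature olfactory sensory neurons (OSN), or under gg8-tTA together with OMP-tTA, which also acts in mature OSN. With both drivers there were 6 MexHT OSN libraries (mCherry-positive cells, labelled as immature and mature OSN), 5 MexHT neg libraries (mCherry-negative cells of the same mice), 3 HT OSN libraries and 3 HT neg libraries. With gg8-tTA alone there were 2 gg8 MexHT OSN libraries, labelled as immature OSN, and 2 gg8 MexHT neg libraries. HT mice, the controls here, thus also express the editing domain and mCherry, and ages and sexes are not given in the sources used here. The replicate number names the mouse within a group, and the OSN and neg libraries with the same number within a construct and driver came from one mouse.

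Olfactory neurons are replaced throughout life. Basal progenitors give rise to immature OSN, which extend an axon to the olfactory bulb before they express the odorant signalling machinery and the marker Omp. Growth cones at the axon tip steer by remodelling actin and microtubules. The 10 genes were grouped as growth cone genes of that stage, and where their proteins act was not measured here. Gap43 is a membrane phosphoprotein and the classical marker of immature OSN. Gng8 is a G protein gamma subunit of immature OSN, and its promoter is the one used in gg8-tTA. Crmp1, Dpysl3 and Dpysl5 belong to the collapsin response mediator (CRMP) family, which links guidance signals to the cytoskeleton. Stmn1, Stmn2 and Stmn4 are stathmins, which bind tubulin and destabilise microtubules. Dcx binds and stabilises microtubules in newly born neurons, and Marcksl1 binds actin and membranes.

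All 10 are protein-coding genes, and positions are on the mm10 build. Gap43 lies on chromosome 16 (42248442 to 42340651, minus strand), Gng8 on chromosome 7 (16891786 to 16895436, plus strand), Crmp1 on chromosome 5 (37241940 to 37292133, plus strand) and Dpysl5 on the same chromosome (30711564 to 30799375, plus strand). Stmn1 and Marcksl1 are on chromosome 4 (134468320 to 134473843 and 129513581 to 129515985, both plus strand), Stmn2 is on chromosome 3 (8509360 to 8561606, plus strand) and Stmn4 on chromosome 14 (66344296 to 66361680, plus strand). Dcx is the X-linked member (143855842 to 143933311, minus strand). Crmp1 overlaps Evc on the opposite strand and Gap43 contains the microRNA gene Mir6540. Marcksl1-ps4, a row named as a copy of Marcksl1, stayed at or below 1.36 TPM in the 21 libraries.

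RefSeq promoter windows on GRCm38.p6, 250 bases before to 50 after a start site, were at hand for 5 of the 10 members: Gng8, Dpysl5, Crmp1, Dcx and Marcksl1, with 7 windows in all. The bases before the start of Gng8 (chr7:16891536-16891785, plus strand) are shown because this gene lends its promoter to the driver and had the largest difference between constructs among the members. Those of Dpysl5 (chr5:30711314-30711563, plus strand) are shown because it carries the rarest motif found. Capitals mark matches to the motifs searched.
Gng8: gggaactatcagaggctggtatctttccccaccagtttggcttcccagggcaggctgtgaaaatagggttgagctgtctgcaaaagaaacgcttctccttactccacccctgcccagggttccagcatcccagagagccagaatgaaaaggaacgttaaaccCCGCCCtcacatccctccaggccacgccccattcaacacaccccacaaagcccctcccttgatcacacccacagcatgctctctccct
Dpysl5: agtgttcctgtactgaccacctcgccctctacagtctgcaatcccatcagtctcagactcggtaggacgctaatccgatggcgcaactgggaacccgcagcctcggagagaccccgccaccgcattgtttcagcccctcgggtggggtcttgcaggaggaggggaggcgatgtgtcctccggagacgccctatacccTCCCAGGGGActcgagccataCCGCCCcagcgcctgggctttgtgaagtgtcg
Both strands were searched for 5 motifs. TAATTA is bound by many homeodomain proteins and TATAAA was taken for the TATA box of core promoters. CCAAT is the site of the factor NF-Y, and GGGCGG is the GC box bound by Sp1. The motif of the EBF factors was taken as TCCC, any pair of bases and then GGGA. The EBF motif was found as TCCCAGGGGA in Dpysl5 alone of the 5 members, 53 bases before the start, and in 0.904% of 32851 windows of this length. A GC box was found 88 bases before the start of Gng8 and 32 bases before that of Dpysl5, and in 35.7% of all windows. The overlapping windows of Dcx held TAATTA (5.29% of all windows), TATAAA (13.6%) and CCAAT (37.4%). Crmp1 held GC boxes, some of which overlapped one another, and Marcksl1 held GC boxes and CCAAT. None of these matches overlapped a match to another motif in the sequences printed.

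The libraries had recovered depths of 7425287 to 15215673 counts, and a member had between 164 and 19653 counts in a library, so counting error was small beside the spread between mice. Mex3a, carried by the MexHT construct, stood at 328.5 to 1271 TPM (a transcript level scaled to gene length and library total) in MexHT OSN and at 23.96 to 61.5 TPM in HT OSN, the direction the labels give. The summed level of 14 mature OSN markers was 2393 to 8157 TPM in MexHT OSN, 12259 to 18757 TPM in HT OSN and 409 to 902 TPM in gg8 MexHT OSN. Omp itself was at 1311 ± 339 TPM (SD, n = 6), 2361 ± 502 TPM (n = 3) and 53.8 and 164.2 TPM in these groups. The neg libraries were mixed: Omp was at 46.9 to 3561 TPM, and summed connective tissue and vessel markers reached 23754 TPM there but at most 329 TPM in any OSN library. Xist ranged from 58.4 to 139.8 TPM in MexHT OSN and was at 0.126, 60.3 and 0.140 TPM in HT OSN, so Xist and construct moved together in these libraries. MexHT OSN replicates 5 and 6 and gg8 MexHT OSN replicate 2 stood apart from the others of their groups in several members. For MexHT OSN against HT OSN, calls on members and list counts that changed without replicates 5 and 6 are given both ways. Leaving these 2 out was a choice made after seeing the data.

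The 10 genes covered a wide range of levels. Ranked by TPM within a library, Stmn1 was the highest member in 5 of the 6 groups by median rank, with a median rank of 54.5 in MexHT OSN and 185 in HT OSN, where Stmn4 ranked higher at 135. Stmn2 (77.5) and Gap43 (126) followed in MexHT OSN, and Dcx was the lowest member there at 1105, with a rank of 4545 in its lowest library. Its lowest rank was 8912, in gg8 MexHT OSN replicate 2. In HT OSN the lowest was Gng8, at a median rank of 2119. The summed level of the 10 genes was 5003 ± 305 TPM in MexHT OSN (n = 6), 2958 ± 52.6 TPM in HT OSN (n = 3), 2967 ± 819 TPM in MexHT neg (n = 5) and 2435 ± 337 TPM in HT neg (n = 3). The gg8 libraries, scaled in a separate table and therefore not tested against the rest, summed to 4555 and 6026 TPM in OSN and 4261 and 4924 TPM in neg.

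**Figure D1:**
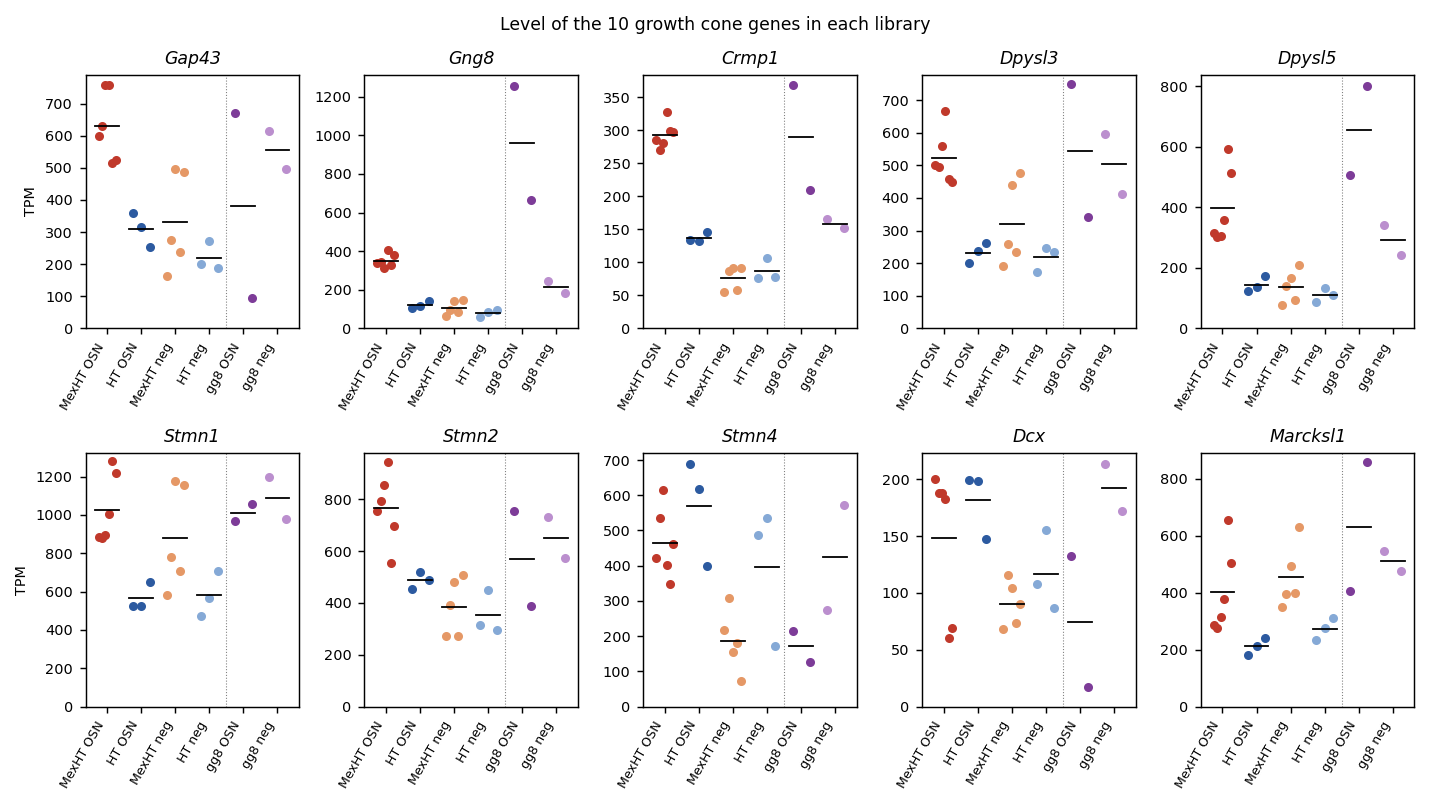
Level in TPM (linear axes from 0) of each growth cone gene in each library; points are libraries in replicate order, horizontal lines are group means, and the dotted line parts the separately scaled gg8 table. Gng8 and Crmp1 in the 6 MexHT OSN libraries lie between 310.5 and 403.2 TPM and between 270.6 and 327 TPM, above every HT OSN and every neg library with both drivers, whereas 2 MexHT OSN libraries fall far below the other 4 in Dcx.

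The first comparison asked how the sorted neurons of MexHT mice differ from those of HT mice. Of the 10 genes, 8 were higher in MexHT OSN (Gap43, Gng8, Crmp1, Dpysl3, Dpysl5, Stmn1, Stmn2 and Marcksl1) and none was lower, by 1.55-fold to 2.89-fold. Dcx and Stmn4 did not pass the test. The background was broad: of 16067 genes tested, 36.8% passed in either direction and 19.9% were higher (limma, Benjamini-Hochberg adjusted p under 0.05). The median log2 difference of the 10 genes was 0.94, beside 0.03 over all genes. In the 8 genes that passed, every MexHT OSN library lay above every HT OSN library, a pattern that 21.5% of all genes tested also had. In bulk libraries of this kind, fewer cells of a type and less RNA per cell cannot be told apart.

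Gap43 was at 358.2, 314.7 and 254.1 TPM in the 3 HT OSN libraries and ranged from 514.8 to 758.2 TPM (median 616.2) in the 6 MexHT OSN libraries. The groups did not overlap, and the gene was 2.03-fold higher in MexHT (log2 difference 1.02 ± 0.16 SE, limma adjusted p = 0.00143). Gng8 was at 107, 114.4 and 141.2 TPM in HT OSN and at 310.5 to 403.2 TPM (median 340.6) in MexHT OSN. It had the largest difference of the members, 2.89-fold (log2 1.53 ± 0.12, adjusted p = 7.3e-05), and the lowest MexHT library was still above the highest HT library by more than the range within either group.

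Among the CRMP genes, Crmp1 was the steadiest, with 133, 132.5 and 146.1 TPM in HT OSN and 270.6 to 327 TPM (median 290.7) in MexHT OSN. Its difference was 2.13-fold (log2 1.09 ± 0.09, adjusted p = 8.62e-05). Dpysl3 was at 199.6, 237.1 and 260.8 TPM in HT OSN and at 449.8 to 667.4 TPM (median 497.2) in MexHT OSN, a 2.23-fold difference (log2 1.16 ± 0.14, adjusted p = 0.000413). For both genes the groups were well apart. Dpysl5 was at 123.9, 134.8 and 172 TPM in HT OSN and at 302.7 to 594 TPM (median 337.7) in MexHT OSN, 2.69-fold higher (log2 1.43 ± 0.23, adjusted p = 0.00152). Its 2 highest values, 594 and 512.7 TPM, were replicates 5 and 6, and without them the log2 difference was 1.17 (adjusted p = 0.000297).

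The stathmins split. Stmn1 was at 522, 522 and 650.5 TPM in HT OSN and at 881.2 to 1283 TPM (median 951.2) in MexHT OSN, 1.81-fold higher (log2 0.85 ± 0.16, adjusted p = 0.00293). Stmn2 was at 453.2, 520.9 and 487.3 TPM in HT OSN and at 555.8 to 946.3 TPM (median 774.2) in MexHT OSN, 1.55-fold higher (log2 0.64 ± 0.16, adjusted p = 0.0111). These 2 genes showed no overlap between groups. Stmn4 was at 689.7, 618.9 and 399.3 TPM in HT OSN and at 347.4 to 613.9 TPM (median 441.4) in MexHT OSN. Its ranges overlapped widely, and the log2 difference of -0.28 ± 0.21 did not pass (adjusted p = 0.308).

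Dcx was at 199.8, 198.6 and 147.9 TPM in HT OSN. In MexHT OSN it was at 200.3, 188.2, 188.2 and 182.6 TPM in replicates 1 to 4 and at 60.4 and 68.8 TPM in replicates 5 and 6. The first 4 lay inside the HT range or just above it and the last 2 far below, and the log2 difference of -0.44 ± 0.41 did not pass (adjusted p = 0.412). Without replicates 5 and 6 it was 0.07 (adjusted p = 0.615). Marcksl1 was at 182.5, 211.1 and 242.3 TPM in HT OSN and at 276.8 to 654.6 TPM (median 344.5) in MexHT OSN, 1.81-fold higher (log2 0.85 ± 0.26, adjusted p = 0.0275). The highest values, 654.6 and 504.3 TPM, were again replicates 5 and 6, and without them the log2 difference was 0.56 (adjusted p = 0.0098).

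With the Xist level as a covariate, 2 of the 10 genes still passed, Gng8 (log2 1.60, adjusted p = 0.0167) and Crmp1 (1.13, adjusted p = 0.0207), and the count over all genes went from 5907 to 329. The log2 differences of the other 6 were 0.54 to 1.40 in that fit, with adjusted p from 0.0626 for Dpysl3 to 0.412 for Marcksl1. Leaving out HT OSN replicate 1 ended the calls of Stmn2 (adjusted p = 0.0539) and Marcksl1 (0.108), and leaving out HT OSN replicate 2 ended that of Marcksl1 (0.0771).

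**Figure D2:**
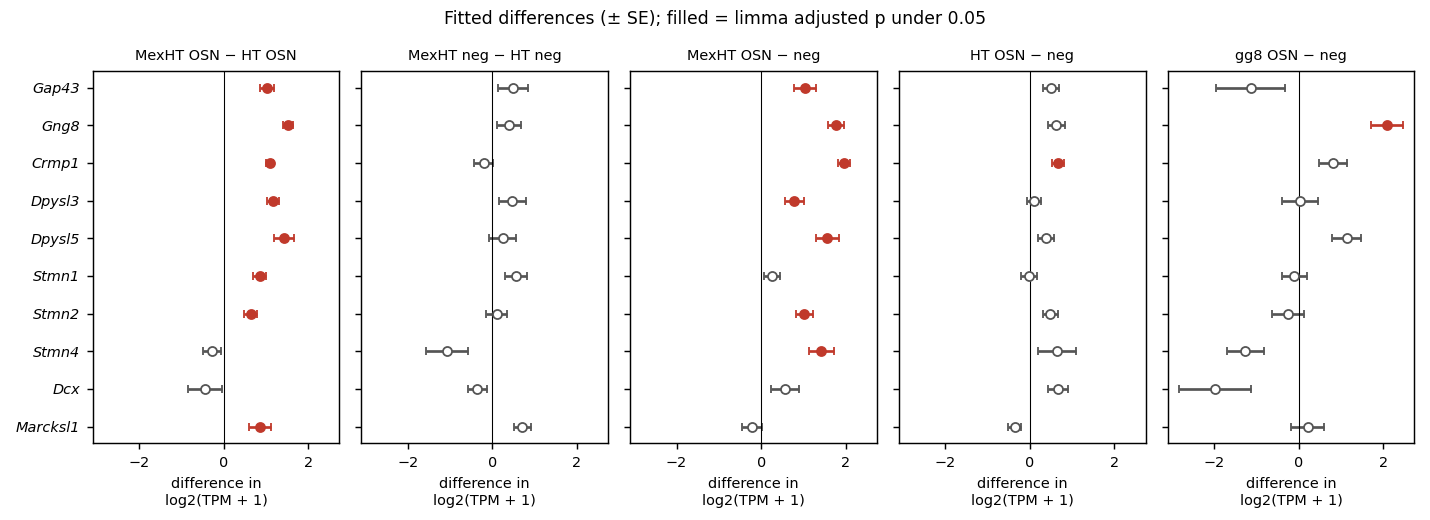
Fitted difference in log2(TPM + 1) for each member in the 5 comparisons between groups, with bars of ± 1 SE; red filled points have a limma adjusted p under 0.05 and open grey points do not. Passing members number 8, 0, 7, 1 and 1 from left to right.

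Lists of related genes were counted in the same comparison, where 19.9% of all genes were higher and 16.8% lower. Of 32 further genes on a list of such proteins, all tested, 19 were higher in MexHT OSN and none lower, with a median log2 difference of 0.64. Without replicates 5 and 6 it was 22 higher and 1 lower, Kif21b, beside 25.2% and 19.5% of all genes. Mapt, which encodes the microtubule-binding protein tau, was at 158.4 ± 49.1 TPM (SD, n = 6) against 27.2 ± 15.1 TPM (n = 3), a log2 difference of 2.57 (SE 0.32, adjusted p = 0.00041). Fscn1, the actin-bundling protein fascin, was at 67.0 ± 38 against 20.2 ± 10.6 TPM (log2 1.62, adjusted p = 0.0152). Close relatives of the members did not all follow. Stmn3, a neuronal stathmin, was higher (823.4 ± 73.7 against 497.9 ± 23.2 TPM, log2 0.72, adjusted p = 0.00116), as was Basp1, a membrane phosphoprotein resembling Gap43 (336.4 ± 47.3 against 169.1 ± 43.1 TPM, log2 1.01, adjusted p = 0.00156). Dpysl2 (log2 0.26, adjusted p = 0.0613, and 0.31, adjusted p = 0.0101, without replicates 5 and 6), Dpysl4 (0.82, adjusted p = 0.103) and Marcks (0.30, adjusted p = 0.202) did not pass.

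Of 13 other G protein beta and gamma subunits that could be tested, 4 were higher and 2 lower. Without replicates 5 and 6, 5 were higher and 3 lower, beside 25.2% and 19.5% of all genes. Gnb2 was higher (log2 1.77, adjusted p = 0.00703) and so was Gng4 (1.22, adjusted p = 0.0303). Gng13, the gamma subunit of mature OSN, was lower (634.7 ± 168 TPM, n = 6, against 1301 ± 148 TPM, n = 3, log2 -1.08, adjusted p = 0.00728), and so was Gngt2 (-1.73, adjusted p = 0.0146). Of 19 kinases and phosphatases that act on growth cone proteins, 4 were higher and 4 lower, shares near those of all genes. Without replicates 5 and 6, 6 were higher and 5 lower. The protein kinase C genes fell on both sides: Prkca (log2 1.08, adjusted p = 0.00283) and Prkce (0.56, adjusted p = 0.00681) were higher, and Prkcd (-1.88, adjusted p = 0.00368) and Prkcb (-1.54, adjusted p = 0.00475) were lower.

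Markers of other cells and stages were read against the same shares of all genes, 19.9% higher and 16.8% lower. Of 14 mature OSN markers 13 were lower in MexHT OSN, among them Adcy3 (log2 -2.72, adjusted p = 0.000765) and S100a5 (-2.69, adjusted p = 0.0271). All 14 were lower without replicates 5 and 6, beside 19.5% of all genes. Of 16 progenitor and cell cycle markers 4 were higher, a share near that of all genes, including Mcm2 (log2 2.10, adjusted p = 0.0021) and Neurod1 (1.98, adjusted p = 0.0248). Their summed level was 453 to 1455 TPM in MexHT OSN against 280 to 414 TPM in HT OSN. Without replicates 5 and 6 the sum was 453 to 520 TPM, 3 markers were higher and 1 lower (Sox2), and the log2 difference was 1.66 for Mcm2 (adjusted p = 0.000319) and 1.31 for Neurod1 (adjusted p = 0.00886). Of 11 immune cell markers 7 were lower, led by C1qa (log2 -2.79, adjusted p = 0.00116) and Csf1r (-2.72, adjusted p = 0.00121), with sums of 267 to 526 TPM in MexHT OSN and 877 to 3654 TPM in HT OSN. Single markers of sustentacular cells (1 of 8 tested, Sec14l3, log2 -1.31, adjusted p = 0.0421), microvillous cells (1 of 4, Pou2f3, -1.60, adjusted p = 0.0114) and connective tissue and vessels (1 of 7, Pecam1, -0.98, adjusted p = 0.00503) were lower, counts that do not stand apart from the share of all genes. No basal cell marker (3 tested), ensheathing glia marker (8 tested) or vomeronasal marker (2 tested) passed. Without replicates 5 and 6, 3 sustentacular and 2 microvillous markers were lower, and 1 ensheathing glia marker (Npy) and 1 vomeronasal marker (Meis2) were higher. The part of these differences in the members' results was not tested.

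The next comparisons asked how OSN differ from the mCherry-negative cells of the same mice. These and the first comparison use the same OSN libraries, so they are not independent of it. In MexHT mice 7 of the 10 genes were higher in OSN and none lower, beside 63.4% of 16522 genes passing in either direction, 35.8% higher and 27.6% lower. The log2 differences were 1.96 for Crmp1, 1.76 for Gng8, 1.57 for Dpysl5, 1.43 for Stmn4, 1.04 for Gap43, 1.02 for Stmn2 and 0.79 for Dpysl3, with limma adjusted p from 2.66e-07 for Crmp1 to 0.00864 for Dpysl3. Their median over all 10 genes was 1.03, beside 0.16 over all genes tested. Dcx (0.57, adjusted p = 0.148), Stmn1 (0.26, adjusted p = 0.256) and Marcksl1 (-0.22, adjusted p = 0.434) did not pass.

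Crmp1 was at 54.9, 87.1, 91.3, 57.5 and 91.6 TPM in the 5 MexHT neg libraries, all below the lowest OSN value of 270.6 TPM. Gng8 was at 64.2, 96.5, 141.9, 86.6 and 144.5 TPM there, and also did not overlap with OSN. Its promoter drives gg8-tTA, so in every comparison of OSN with neg a higher Gng8 is in part set by the sort. Stmn4 was at 216.3, 308, 155.5, 181.7 and 72.4 TPM in MexHT neg, below the lowest OSN value of 347.4 TPM. Of all genes tested, 23.4% likewise had every OSN library above every neg library. Stmn4 is the member that stood well above the neg cells in MexHT OSN without being higher than in HT OSN. Marcksl1, in contrast, was at 348.5, 394.4, 494.5, 399.2 and 629.1 TPM in MexHT neg, within the OSN range.

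Dcx depended on single libraries in this comparison. It passed with the mouse as a block (log2 0.76, adjusted p = 0.032), without MexHT OSN replicate 5 (0.80, adjusted p = 0.0256), without replicate 6 (0.76, adjusted p = 0.0494) and without both (1.09, adjusted p = 0.00013). Marcksl1 was lower in OSN than in neg without both (log2 -0.51, adjusted p = 0.0231).

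In HT mice, whose OSN carry HyperTRIBE without Mex3a, Crmp1 alone of the 10 genes passed, at 133, 132.5 and 146.1 TPM in OSN and 76.8, 107.1 and 77.1 TPM in neg (log2 0.67 ± 0.15, limma adjusted p = 0.0373), beside 11.3% of 17027 genes in either direction, 2.18% higher and 9.11% lower. That call was lost with voom, a precision-weighted model of recovered counts, and without any one HT library other than HT neg replicate 2. The labels place each OSN and neg pair in one mouse, and with the mouse as a block 6 of the 10 passed. Higher in OSN were Crmp1, Gng8 (log2 0.63, adjusted p = 0.0141), Dcx (0.66, adjusted p = 0.0198), Stmn2 (0.48, adjusted p = 0.0374) and Gap43 (0.50, adjusted p = 0.047), and Marcksl1 was lower (-0.36, adjusted p = 0.0264), while the count over all genes went from 1923 to 4967.

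Within single mice, Gng8, Crmp1, Dpysl5, Gap43, Stmn2 and Stmn4 were higher in OSN than in neg in 5 of 5 MexHT mice and in 3 of 3 HT mice, as were 26.0% of 16785 genes. For Crmp1 the log2 difference was 2.35, 1.62, 1.61, 2.49 and 1.70 in the MexHT mice and 0.78, 0.30 and 0.91 in the HT mice, with no overlap. For Gng8 the 5 MexHT mice had 2.38, 1.81, 1.12, 2.21 and 1.18 and the 3 HT mice 0.83, 0.48 and 0.58, also without overlap. Dpysl5 did not overlap either, with 0.86 to 2.03 in MexHT mice and 0.03 to 0.62 in HT mice. Of all genes, 16.2% had a larger step in every MexHT mouse than in every HT mouse. Marcksl1 differed in sign from these genes: it was -0.34, -0.38 and -0.36 in HT mice and -0.29, -0.51, -0.66, -0.09 and 0.06 in MexHT mice.

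**Figure D3:**
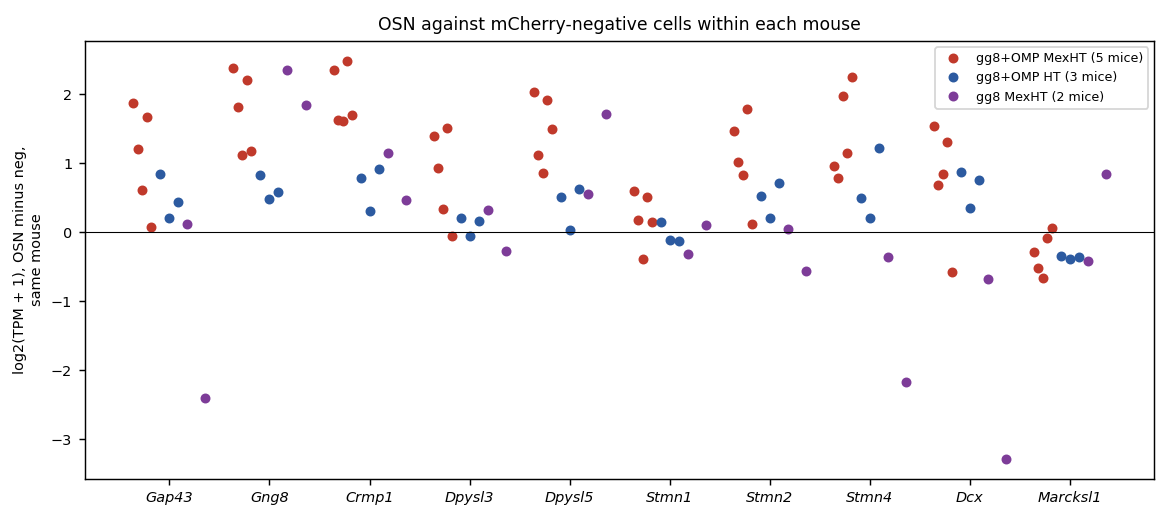
Difference in log2(TPM + 1) between OSN and mCherry-negative cells of the same mouse; each point is 1 mouse, coloured by driver and construct. The 5 MexHT points for Crmp1 (1.61 to 2.49) and Gng8 (1.12 to 2.38) lie above the 3 HT points, while 1 gg8 mouse lies at -3.28 for Dcx and -2.40 for Gap43.

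Whether the step from neg to OSN differed between constructs was tested as an interaction over the 17 libraries with both drivers. It passed for 2 of the 10 genes, beside 12.4% of 16785 genes in either direction, 7.05% with a larger step in MexHT and 5.37% with a smaller one. The step was larger in MexHT by a log2 value of 1.29 ± 0.24 for Crmp1 (limma adjusted p = 0.00293) and 1.14 ± 0.31 for Gng8 (adjusted p = 0.0241). Crmp1 passed in all 25 alternatives, and Gng8 lost the call without HT neg replicate 2, HT neg replicate 3, HT OSN replicate 1 or HT OSN replicate 2 (adjusted p 0.0543 to 0.0639). Dpysl5 had a value of 1.18 (adjusted p = 0.0689) and passed with the mouse as a block (1.10, adjusted p = 0.0244). For the other 7 genes the difference between constructs did not pass, with values from -0.09 for Dcx to 0.78 for Stmn4. On the list of other growth cone and neurite genes 9 of 32 had a larger step in MexHT and none a smaller one, among them Stmn3 (log2 1.08, adjusted p = 0.00425) and Mapt (1.67, adjusted p = 0.0304).

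The mCherry-negative cells of the 2 constructs were compared as a background. None of the 10 genes passed, and none of 16860 genes did (limma, percent passing 0). Voom on the recovered counts also called no gene. Yet 3465 genes (20.6%) and 1 member, Marcksl1, had an unadjusted limma p under 0.05. The lack of calls thus does not show the 2 neg fractions to be alike. Marcksl1 was at 348.5, 394.4, 494.5, 399.2 and 629.1 TPM in MexHT neg and 232, 276 and 311.2 TPM in HT neg, without overlap (log2 0.71 ± 0.20, adjusted p = 0.218), a pattern that 3.64% of all genes had. Stmn4 went the other way in value, at 72.4 to 308 TPM in MexHT neg and 486.2, 534.3 and 171.1 TPM in HT neg (log2 -1.07 ± 0.50, adjusted p = 0.263). The neg fractions of both constructs held cells with these transcripts, with Stmn1 at 470 TPM or more in every neg library.

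In gg8 mice the construct was driven in immature OSN without OMP-tTA. Its mCherry was switched on through the Gng8 promoter, so a higher Gng8 level in OSN is in part set by the sort. Gng8 was at 1256 and 663.9 TPM in OSN and 244.8 and 184.8 TPM in neg (log2 2.10 ± 0.38, limma adjusted p = 0.03). It was the 1 member of 10 that passed, beside 8.32% of 16490 genes in either direction and 1.12% higher. With 2 libraries a group that call is weak, since it was lost without OSN replicate 2 or without either neg library. In simulated data of this size with 200 changed genes 5 of 6 calls were false. The real fit made 1372 calls, so that share cannot be carried over to it. Dpysl5 was at 505.6 and 802.6 TPM in OSN and 342.1 and 243 TPM in neg, and Crmp1 at 368.7 and 210.2 TPM against 164.9 and 151.5 TPM. Both had the OSN libraries above the neg libraries without overlap, which 33.5% of all genes tested also had, and neither passed (adjusted p = 0.0855 and 0.161).

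The 2 gg8 OSN libraries differed from each other in several members. Gap43 was at 671.6 TPM in replicate 1 and 93.8 TPM in replicate 2, beside 614.5 and 498.1 TPM in neg. Dcx was at 132.7 and 16.8 TPM, beside 213.5 and 171.8 TPM in neg. Marcksl1 went the other way, at 407.1 and 857.2 TPM, beside 545.9 and 476.2 TPM in neg, and Stmn1 hardly differed, at 966.2 and 1055 TPM. Dpysl3 was at 750 and 340.8 TPM and Stmn2 at 753.8 and 388.2 TPM. Replicate 2 was thus below replicate 1 in Gap43, Dcx, Dpysl3 and Stmn2, as it was in Gng8 and Crmp1, and above it in Dpysl5 and Marcksl1. Stmn4 was below both neg libraries in both OSN libraries, at 214.2 and 126.8 TPM against 275.6 and 573.5 TPM (log2 -1.26, adjusted p = 0.114), a pattern that 30.2% of all genes tested had. Omp was at 164.2 and 53.8 TPM there against 1937 and 3561 TPM in neg. Xist was at 0.441 TPM in OSN replicate 1 and 159.4 TPM in replicate 2, beside 0.144 and 21.4 TPM in neg replicates 1 and 2. OSN replicate 2 had the most counts of all libraries (15215673) and the fewest genes at 1 TPM or more. That number was 13917, beside 16398 in OSN replicate 1.

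The MexHT OSN libraries with both drivers also differed among themselves. Replicates 5 and 6 had the lowest Dcx (60.4 and 68.8 TPM) and Gap43 (514.8 and 524.1 TPM) of the 6. They were also lowest in Dpysl3 (459.2 and 449.8 TPM) and Stmn2 (555.8 and 697.2 TPM). The same replicates had the highest Dpysl5 (594 and 512.7 TPM), Marcksl1 (654.6 and 504.3 TPM) and Stmn1 (1283 and 1216 TPM). The ratio of Dpysl5 to Dcx was 1.58, 1.61, 1.63 and 1.97 in replicates 1 to 4 and 9.84 and 7.45 in replicates 5 and 6. It was 0.62, 0.68 and 1.16 in HT OSN and 3.81 and 47.8 in the gg8 OSN libraries. Gng8, with 329.5 and 377.4 TPM, and Crmp1, with 298.9 and 296.7 TPM, were inside the range of the other 4 in replicates 5 and 6. This differs from the gg8 OSN libraries, where Gng8 was at 1256 and 663.9 TPM and Crmp1 at 368.7 and 210.2 TPM.

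Other transcripts differed between the same libraries. Mature OSN markers summed to 2393 and 4887 TPM in replicates 5 and 6 and to 5856 to 8157 TPM in the other 4, and to 902 and 409 TPM in the gg8 OSN libraries. Map1b, a microtubule-associated protein of growing axons, was at 1028 and 1119 TPM in replicates 5 and 6 and at 1917 to 2200 TPM in the other 4, and at 1637 and 1045 TPM in gg8. Mex3a was at 1271 and 678.8 TPM in replicates 5 and 6 and at 328.5 to 359.1 TPM in the other 4, and at 460.3 and 1632 TPM in the gg8 OSN libraries. Neurod1, a transcription factor of late progenitors and nascent neurons, was at 340.6 and 157.5 TPM in replicates 5 and 6, at 36.3 to 74.3 TPM in the other 4, and at 79.9 and 651.7 TPM in the gg8 OSN libraries. Neurog1, an earlier proneural factor, was at 42.2 and 20.5 TPM against 4.80 to 9.89 TPM, and at 21.9 and 90.1 TPM in gg8. The cell cycle gene Mki67 was at 155.1 TPM in replicate 5 but at 44.7 TPM in replicate 6, within the 20.6 to 50.7 TPM of the other 4. With replicates 5 and 6 left out, 8 members were still higher in MexHT OSN than in HT OSN. The other 4 libraries still differed from HT OSN in mature OSN marker sums (5856 to 8157 against 12259 to 18757 TPM). They also differed in progenitor and cell cycle marker sums (453 to 520 against 280 to 414 TPM). The part of progenitor and mature OSN transcripts and of the Mex3a level in the members' values was not tested.

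**Figure D4:**
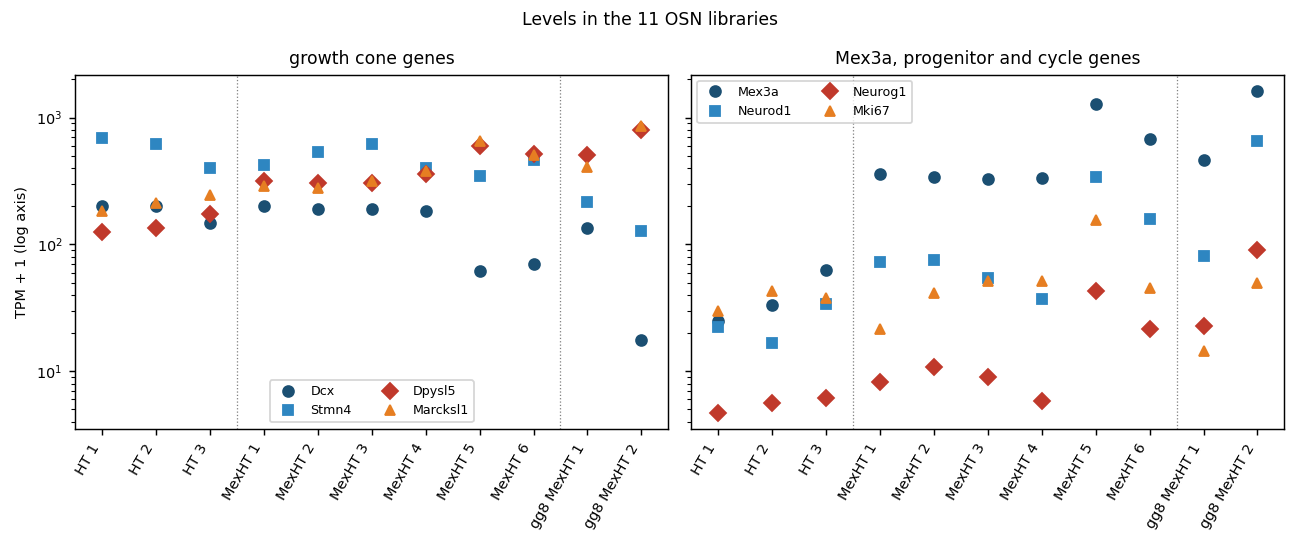
Level plus 1 TPM on a log axis of 4 growth cone genes (left) and of Mex3a and 3 progenitor or cell cycle genes (right) in the 11 OSN libraries; dotted lines part HT, MexHT and the separately scaled gg8 MexHT libraries. In MexHT replicates 5 and 6 and gg8 MexHT replicate 2 Dcx is low (60.4, 68.8 and 16.8 TPM) where Dpysl5, Marcksl1, Mex3a and Neurod1 are high.

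The members did not vary as a block within groups either. Over the 17 libraries with both drivers, after each group's mean was taken away, 15 of 45 pairs had a Pearson correlation over 0.7 and 11 had a negative one. The closest pairs were Dpysl5 with Stmn1 (0.91), Gng8 with Dpysl3 (0.90) and Dpysl5 with Marcksl1 (0.88). The most opposed were Stmn1 with Stmn4 (-0.69), Dcx with Marcksl1 (-0.68) and Gng8 with Stmn4 (-0.64). Without MexHT OSN replicates 5 and 6, 25 pairs were over 0.7 and 9 were negative, and Dcx with Marcksl1 was at -0.007, so that its negative value rests on those 2 libraries. The other 5 pairs kept their sign (0.89, 0.94, 0.85, -0.71 and -0.67 in the order given). Apart from Dcx with Marcksl1, every negative pair then included Stmn4. Pairs among the members other than Dcx and Stmn4 were then all positive, the lowest being Gap43 with Marcksl1 (0.63). These describe libraries that share mice and a TPM scale.

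The makeup of 2 protein families differed between groups. The summed level of the 5 CRMP genes was 1688 ± 130 TPM (SD, n = 6) in MexHT OSN and 908 ± 45.6 TPM (n = 3) in HT OSN. Of this sum, Dpysl2 held 28.1% ± 2.66 in MexHT OSN and 43.5% ± 4.03 in HT OSN, with ranges of 23.7 to 31.1% and 39.2 to 47.2%. Dpysl5 held 23.5% ± 6.45 and 15.7% ± 1.97, Dpysl3 30.9% ± 4.07 and 25.5% ± 2.19, Crmp1 17.4% ± 0.353 and 15.1% ± 0.39, and Dpysl4 under 1% in every group mean. The ranges of Dpysl2, Crmp1 and Dpysl5 (18.8 to 33.4% and 14.3 to 18.0%) did not overlap between the groups. In level, which is another measure than a share, 21.5% of all genes tested lay higher without overlap and 16.9% lower. A smaller share is not a lower level, as Dpysl2 was at 471.6 TPM in MexHT OSN and 393.5 TPM in HT OSN. Without replicates 5 and 6 Dpysl5 held 19.4% ± 0.508 (n = 4), and Dpysl3, at 31.3 to 35.5% against 23.1 to 27.3%, then did not overlap either. In gg8 MexHT OSN Dpysl5 held 22.6 and 45.4% of the family.

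The stathmin family summed to 3082 ± 198 TPM in MexHT OSN (n = 6) and 2119 ± 96 TPM in HT OSN (n = 3). Stmn4 held 15.0% ± 2.89 of it in MexHT OSN and 26.7% ± 6.12 in HT OSN, with ranges of 11.5 to 19.0% and 19.9 to 31.7% that did not overlap. Stmn1 held 33.4% ± 5.50 and 26.8% ± 4.84, Stmn2 24.9% ± 4.23 and 23.0% ± 1.89, and Stmn3 26.7% ± 0.917 and 23.5% ± 0.105. The range of Stmn3 did not overlap either (25.4 to 27.8% and 23.4 to 23.6%), nor did that of Stmn2 without replicates 5 and 6 (26.4 to 29.7% and 20.9 to 24.3%). In the neg fractions Stmn1 held 49.3% ± 7.20 of the family in MexHT (n = 5) and 34.6% ± 11.5 in HT (n = 3). Stmn4 held 5.86 and 8.86% in the 2 gg8 MexHT OSN libraries and 3.57% in MexHT neg replicate 5. No test was made on the shares, and how often shares of other gene sets fail to overlap was not counted. Shares within a family are tied, since a smaller share of 1 gene raises those of others, so they are not separate results.

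**Figure D5:**
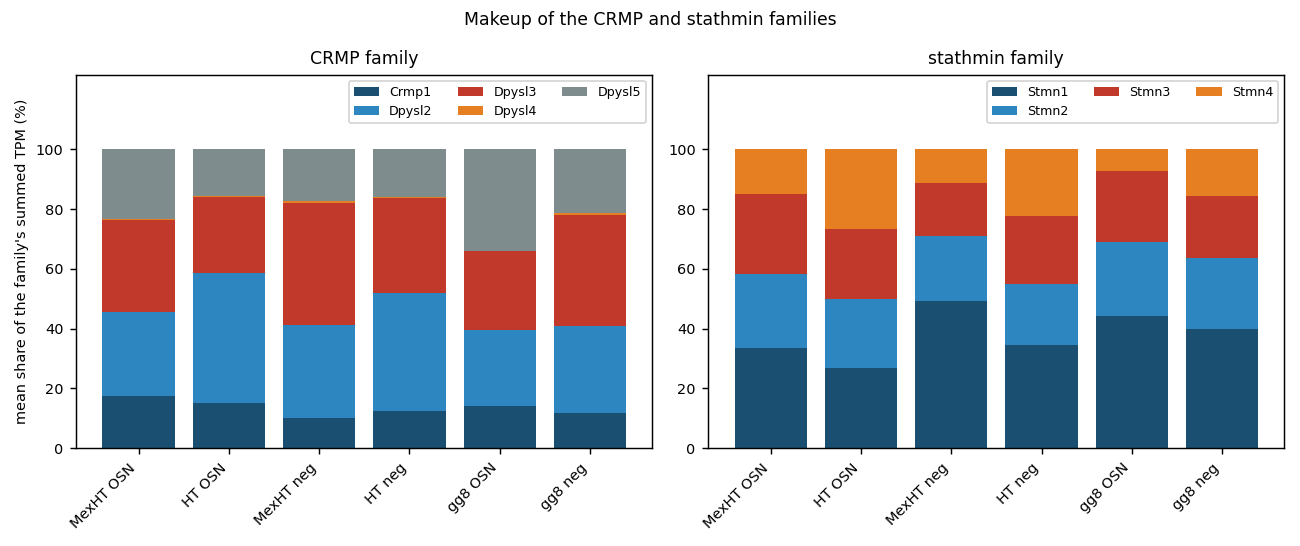
Mean share of each gene in the summed TPM of the CRMP family (left) and the stathmin family (right) in each group, as stacked bars from 0 to 100%. The Dpysl2 share is 28.1% in MexHT OSN and 43.5% in HT OSN, and the Stmn4 share 15.0% and 26.7%.

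For each member the genes with the most similar profile over the 17 libraries were ranked by Pearson correlation of log2 levels among 12577 genes. Those nearest to Crmp1 were Gprin1, Zfp12 and Stx1a (0.99 each), and those nearest to Gng8 were Csnk1e (0.99), Vash1 and Sbk1 (0.98 each). Dpysl5 was closest to Zfp358, Camsap3 and Fam171a2 (0.99 each). Dcx was closest to Homer2 (0.96), Tnks (0.96) and Rtn3 (0.95), and Stmn4 to Slc45a1, Dusp14 and Slc14a2 (0.97 each). Dpysl3 had Smarce1 (0.96), Gdf11 and Basp1 (0.95 each), Stmn1 had Map4k4, Nono (0.96 each) and Hunk (0.95), and Stmn2 had Ctnnbip1, Aff3 and Nol4l (0.96 each). Gap43 had the least close neighbours, Eprs (0.94), Fam60a and Arl2bp (0.93 each), and Marcksl1 had Grasp, Mta2 (0.95 each) and Mfng (0.94). The members themselves were left out of the genes compared. Gap43 correlated at 0.933 with Dpysl3 and 0.932 with Stmn2, above its value of 0.926 with Arl2bp.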

How the data were processed

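RNA of 21 libraries of sorted mouse olfactory epithelium cells was analysed. Per the labels, cells were dissociated with papain, RNA was extracted with TRIzol, and a strand-marking low-input kit for total RNA was used. The authors deposited TPM values in 2 tables, scaled separately. FastQC, cutadapt, STAR, bedtools and the mm10 build are named in the submitters' processing notes. The counting program, the annotation and whether counting used strand are not given in the sources used here, so reads of Crmp1 and its antisense neighbour Evc may not have been told apart. All value columns matched a sample by name (0 left out), and 27 symbols turned into dates were dropped in each table.

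The 10 genes, the gene lists and the tests were chosen with earlier results of these data known. Each comparison was fitted on log2(TPM + 1) over all genes averaging 1 TPM or more across the groups compared, and those groups alone, by limma 3.58.1 (R 4.3.3) with a mean trend in its empirical Bayes step. Tests were two-sided, p-values were adjusted by Benjamini-Hochberg over all genes, and the threshold was 0.05. Fold changes are on the log2(TPM + 1) scale. Genes named besides the members were the 2 largest rises and 2 largest falls per list among those passing in MexHT OSN against HT OSN, a set of related and marker genes (Mex3a, Xist, Omp, Mki67, Gng13, Dpysl2, Dpysl4, Stmn3, Marcks and Basp1) and the 3 most similar genes per member. Neurod1, Neurog1 and Map1b by library, Mapt in the interaction, and Kif21b, Sox2, Npy and Meis2 without libraries 5 and 6 were named after their values were seen.

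TPM values were whole multiples of 1 step per gene once libraries were scaled, within a tolerance of 0.02 counts, for 99.996% of 23614 genes with both drivers, where wrong scales gave 7.66%. In the gg8 table it was 99.86% of 22808 genes. These whole counts gave the depth and the count model (limma voom). Counts of replicate libraries differed by a chi-square of 3.53 to 126.3 per degree of freedom over 33 pairs. In simulated data with 200 changed genes, the MexHT OSN against HT OSN fit found 37% of 2-fold and 91% of 4-fold changes among 15998 genes. The gg8 fit found 0% and 1% among 16537 genes, with 83.3% of its 6 calls false. The real fits made 5907 and 1372 calls, so these shares cannot be carried over to them. OSN and neg libraries of one number are from one mouse per the labels. Their deviations from group means correlated at -0.109 to 0.421 in MexHT, 0.174 to 0.475 in HT and 0.018 in gg8. MexHT OSN replicates 1 and 3 and HT OSN replicate 1 correlated more closely with a neg library of another number. Same-numbered MexHT neg and HT neg libraries correlated at 0.231 to 0.418, though no label ties those mice. Labels do not say whether mice were littermates, so p-values measure the spread between these libraries. Alternatives were other pseudocounts, filters and scalings, voom, the replicate block, all 4 groups in 1 fit, the Xist level as covariate and leaving out each library. Promoter windows are from RefSeq (GRCm38.p6), positions from GENCODE on mm10.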

Additional observations from a re-analysis of the deposited data

Results flagged for a closer look

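The step from mCherry-negative cells to OSN differed between constructs, by a test of the difference itself, for 2 of the 10 genes. It was larger in MexHT than in HT by a log2 value of 1.29 for Crmp1 (limma adjusted p = 0.00293) and 1.14 for Gng8 (adjusted p = 0.0241). Each of the 5 MexHT mice had a larger step than each of the 3 HT mice in both genes, and in Dpysl5, a pattern that 16.2% of all genes had. Its promoter drives gg8-tTA, so the step of Gng8 is in part set by the sort. The Gng8 call was also lost when some single HT libraries were left out, as given above. Mature OSN marker sums in the same libraries were 2393 to 8157 TPM in MexHT OSN and 12259 to 18757 TPM in HT OSN. In the neg libraries they were 664 to 9715 TPM in MexHT and 7393 to 15380 TPM in HT. The part of these sums in the difference was not tested. Dixon's test on the single highest or lowest library passed in none of 20 gene and group combinations. It cannot see 2 libraries that stand apart together, as MexHT OSN replicates 5 and 6 did in Dcx (60.4 and 68.8 TPM against 182.6 to 200.3 TPM), so it says nothing of that split.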

How the results depend on the processing

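Of 1060 values of single members under the alternatives, 993 kept their direction and their side of the threshold, 22 no longer passed, 18 newly passed and 27 changed sign. Leaving out MexHT OSN libraries 5 and 6 together was chosen after seeing the data. For MexHT OSN against HT OSN, 5907 genes and 8 members passed. The Xist covariate gave 329 and 2, and leaving out 1 library gave 3745 to 6506 and 6 to 8, the lowest without HT OSN replicate 1 (3745) and then HT OSN replicate 2 (3886). For the neg libraries no gene passed, against 1 without a filter on low values, 24 in a fit of all 4 groups and 0 to 4 when 1 library was left out, with no member in any of these. For HT OSN against HT neg, 1923 genes and 1 member passed, against 1061 and 0 with voom and 4967 and 6 with the replicate block. Leaving out 1 library gave 660 to 4183 genes (the highest without HT neg replicate 2) and 0 to 4 members. For gg8, 1372 genes and 1 member passed, against 820 genes under a filter at 5 TPM, and leaving out 1 library gave 0 to 3703 genes and 0 to 4 members, all highest without OSN replicate 1. For the interaction, 2086 genes and 2 members passed, and leaving out 1 library gave 1195 (without HT neg replicate 2) to 2483 genes and 1 to 3 members. For MexHT OSN against neg the calls on members rose from 7 to 8 or 9 or stayed. The cause of these shifts was not tested.

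The sign changes were in values that did not pass. Dcx in MexHT OSN against HT OSN was 0.0907 with the replicate block and 0.0725 without libraries 5 and 6. In MexHT neg against HT neg, the Xist covariate gave -0.0104 for Gap43, -0.15 for Dpysl5 and -0.35 for Stmn2, and leaving out 1 library gave -0.0159 to 0.28 for Stmn2. In HT OSN against HT neg, leaving out 1 library gave -0.0549 to 0.21 for Dpysl3 and -0.17 to 0.12 for Stmn1. In gg8, Dpysl3 was -0.0531 with median-of-ratios scaling and -0.097 with voom, and leaving out 1 library gave -0.54 to 0.59 for Dpysl3, -0.24 to 0.0475 for Stmn1, -2.55 to 0.28 for Gap43, -0.73 to 0.22 for Stmn2 and -0.32 to 0.75 for Marcksl1. In the interaction, Dcx was 0.099 with the replicate block, 0.43 without libraries 5 and 6 and -0.31 to 0.14 with 1 library left out, and Marcksl1 was -0.15 without libraries 5 and 6 and -0.00869 to 0.27 with 1 left out. Where leaving out 1 library left a gg8 group with 1 library, it was assumed to vary like the other group.

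The replicate block changed no member's call beyond those given in the report for Dcx, Dpysl5 and HT OSN against neg. Between MexHT OSN and HT OSN the samples share only a number (correlations 0.115, 0.132 and -0.228, not all highest with their own number), and the block gave 4801 genes and 8 members. Depth limits no member, the lowest having 164 counts.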
